A study of Bos taurus with 20 samples.

Results

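The measurements concern 7 miRNAs that are known from blood vessels and connective tissue, bta-miR-126-5p, bta-miR-126-3p, bta-miR-199a-5p, bta-miR-199a-3p, bta-miR-199b, bta-miR-199c and bta-miR-214, taken by name from a table of 1029 bovine miRNAs. The libraries were made from small RNA of frozen-thawed semen of 20 Holstein-Friesian bulls of artificial insemination centres, 10 of high fertility (HF) and 10 of low fertility (LF), grouped by a field fertility score adjusted for other effects. Straws from 3 ejaculates of a bull were pooled into 1 library per bull, so the replicates are bulls and differences among ejaculates of a bull were not measured. Neither group received a treatment, and the ages of the bulls were not given in the sources used here. Before RNA extraction the sperm of both groups were treated with a somatic cell lysis buffer, and the preparations were tested by RT-PCR for transcripts of leucocytes, epithelial cells and germ cells. The authors report that none of these transcripts was amplified. Transcripts of endothelial or smooth muscle cells were not among those tested.

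A miRNA is cut from a hairpin precursor, and each side of the hairpin, the 5p and the 3p arm, can give a mature strand. miR-126 is the classic endothelial miRNA, encoded within an intron of EGFL7 and known for its part in VEGF signalling and vessel integrity, and its 3p arm is usually the more abundant strand. miR-199a and miR-214 are made together from a long antisense transcript within a dynamin gene and are known from fibroblasts, smooth muscle and other mesenchymal cells. In the ARS-UCD2.0 annotation of the bovine genome, used here for names and neighbours only, MIR126 lay in EGFL7, MIR199A-1 and MIR214 lay together in DNM3, MIR199A-2 in DNM2, MIR199B in DNM1 and MIR199C in NUP88.

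The depth ranged from 103204 to 3097581 recovered miRNA reads per library in HF bulls, with a median of 1092881, and from 310186 to 1640178 in LF bulls, with a median of 1085742. Values are given as normalized counts, which are reads relative to the library total, scaled by the normalization factors of the authors. The limit that a count of 0 allows, 3 reads, stood for a normalized count between 1.19 (HF replicate 2) and 27.6 (HF replicate 17). These limits and the intervals of read shares below cover counting error only. Among marker miRNAs of sperm and testis, the male germ line list of 5 miRNAs summed to a mean normalized count of 46054, led by miR-34c at 35783 ± 8657 (SD, n = 20).

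All 7 miRNAs had reads in these sperm libraries, at low levels. The 6 that were counted separately together took 0.0245% ± 0.0144 of the miRNA reads of a library (SD, n = 20), from 0.00775% in HF replicate 17 to 0.0678% in LF replicate 5. The most abundant, miR-199a-3p, ranked 143rd among all miRNAs by mean level and miR-126-3p ranked 172nd. miR-199a-5p ranked 243rd, miR-126-5p 347th, miR-199b 358th and miR-214 469th. Other miRNAs made up nearly all of every library.

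miR-199c was not an independent measurement. Its value equalled that of miR-199a-3p in 19 of 20 libraries, and in HF replicate 10 it was 301 reads against 304. The 3p strands of the miR-199 genes are nearly identical in mammals, and such a read can be counted under each name. The table held 4 pairs of miRNAs with reads that matched in this way in at least 19 libraries. miR-199a-3p is therefore described below for both names, and reads of either gene cannot be told apart. How the counting divided reads between miR-199a-5p and miR-199b, whose genes also share sequence, was not tested.

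miR-199a-3p was detected in all 20 libraries. It ranged from 18.4 to 201 with a median of 123 in HF bulls and from 40.2 to 293 with a median of 127 in LF bulls. The lowest value, HF replicate 17, rested on 2 reads, the next lowest, LF replicate 11, on 13 reads, and the highest, LF replicate 5, on 491 reads. The ranges of the groups overlapped over most of their length.

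miR-126-3p was also detected in every library, from 41.0 to 172 with a median of 55.8 in HF bulls and from 27.7 to 250 with a median of 43.7 in LF bulls. LF replicates 5 and 4 and HF replicate 15 were the highest, at 250, 174 and 172. The other 17 bulls lay at or below 112, so 2 LF bulls and 1 HF bull stood above the rest. The other arm, miR-126-5p, was detected in 17 libraries and reached 22.0 in HF replicate 15. It ran from 0 to 22.0 with a median of 5.97 in HF bulls and from 0 to 14.3 with a median of 3.10 in LF bulls. The libraries at 0 were HF replicates 6 and 17 and LF replicate 11, where 3 reads would have been 4.60, 27.6 and 9.27. Of the 17 bulls with reads, 10 lay above the first of these limits, 3 above the last and 0 above 27.6, so levels like those of most other bulls were not detectable in HF replicate 17 and LF replicate 11.

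miR-199a-5p had the largest SD of the members on the log2 scale. It ranged from 0 to 62.0 with a median of 10.6 in HF bulls and from 1.23 to 101 with a median of 4.69 in LF bulls. The highest bulls were LF replicate 4 at 101, LF replicate 5 at 83.0 and HF replicate 15 at 62.0, and the lowest bull with reads, LF replicate 18, had 1 read. High and low bulls occurred in both groups. Its SD over the 20 bulls on the log2 scale was 1.87, against a median of 0.69 for the 99 miRNAs whose mean level lay within 2-fold of its own, and 0 of these 99 had a higher SD. By the coefficient of variation of the normalized counts it came, at 125%, after the scarcer miR-214 at 160% and miR-199b at 127%, with miR-126-5p at 95.3%. For miR-126-3p the coefficient of variation was 74.7%, against a median of 37.5% for 79 miRNAs of like level, of which 6 varied more. For miR-199a-3p it was 50.6%, against 32.8% for 70 such miRNAs, of which 12 varied more. By SD on the log2 scale, 14 of the 79 exceeded miR-126-3p and 7 of the 70 exceeded miR-199a-3p. A higher coefficient of variation was found in 21 of 106 miRNAs of like level for miR-126-5p. For miR-199b it was 12 of 104 and for miR-214 24 of 100.

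miR-199b was detected in 14 libraries and miR-214, the partner of miR-199a in its transcript, in 9. miR-199b ranged from 0 to 20.0 with a median of 3.92 in HF bulls and from 0 to 17.8 with a median of 1.72 in LF bulls. The highest were HF replicate 15 and LF replicates 4 and 5, which were also the highest for miR-199a-5p. miR-214 had 35 reads over all libraries. It ranged from 0 to 2.02 with a median of 0.903 in HF bulls, where 6 bulls had a read, and from 0 to 6.57 with a median of 0 in LF bulls, where 3 bulls did. The 3 LF bulls were replicates 1, 4 and 5, with 3, 6 and 11 reads. At these depths presence and absence of miR-214 could not be told apart in most bulls.

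**Figure D1:**
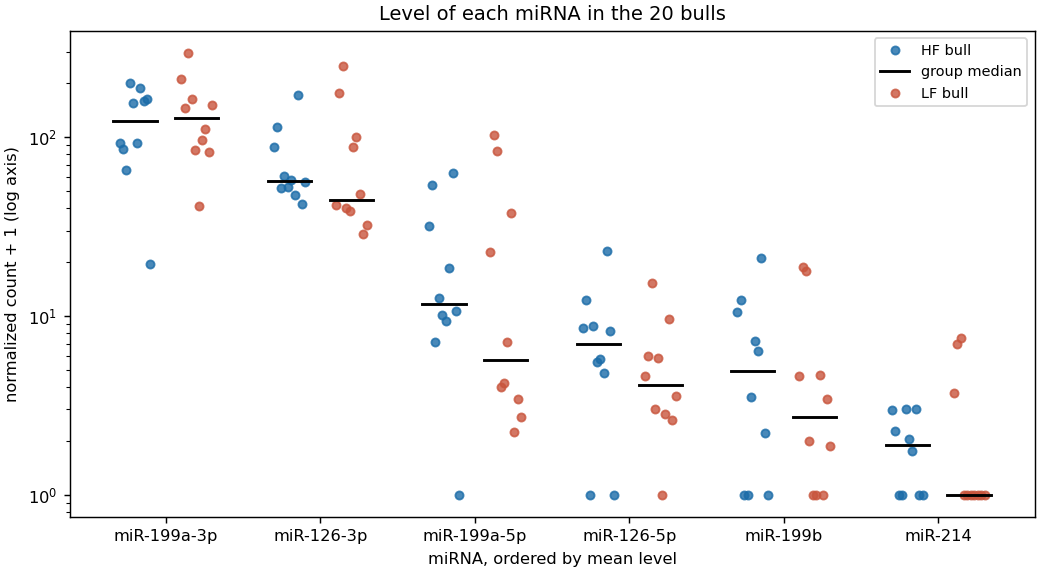
Normalized count plus 1, on a log axis, of the 6 separately counted miRNAs in each of the 20 bulls. Points are bulls (HF blue, LF red) and lines are group medians; the groups overlap for every miRNA, and miR-199a-5p spreads from 0 to 101.

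The order of the levels was tested between neighbours within bulls, with 5 two-sided sign-flip permutation tests on log2(normalized count + 1). miR-199a-3p exceeded miR-126-3p by 0.78 ± 1.15 (log2, SD, n = 20), in 14 of 20 bulls, adjusted permutation p = 0.010. miR-126-3p exceeded miR-199a-5p by 2.45 ± 1.30 in 20 of 20 bulls, where the permutation p of 1e-05 was the smallest the resamples can give. miR-199a-5p exceeded miR-126-5p by 1.30 ± 1.54 in 16 of 20 bulls (adjusted permutation p = 0.0025). miR-126-5p and miR-199b were neighbours that did not differ beyond their spread, at 0.46 ± 1.30 with miR-126-5p higher in 8 of 20 bulls and an adjusted permutation p of 0.13. They were equal in HF replicate 3 and LF replicate 1, and both were 0 in HF replicates 6 and 17 and LF replicate 11. miR-199b exceeded miR-214 by 1.05 ± 0.94 in 14 of 20 bulls (adjusted permutation p = 0.000275), and both were 0 in the others.

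Whether the levels went with field fertility was asked by comparing HF with LF bulls in a limma fit over 435 miRNAs. No difference was found for any of the members. Across all miRNAs 9 of 435, or 2.07%, passed both an unadjusted p of 0.05 and a fold change of 1.5, 4 higher and 5 lower in HF bulls, and 0 of the 6 members that passed the filter on low values were among them. With library totals in place of the authors' scaling the split of all calls was 3 higher and 8 lower. 0 members had an unadjusted p under 0.05 by limma, edgeR or DESeq2. After Benjamini-Hochberg adjustment 0 of 435 miRNAs passed 0.05 by limma, where 15 had an unadjusted p under 0.05, and 0 by either edgeR test or DESeq2, where 18, 16 and 18 did.

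miR-126-3p had a mean of 73.2 ± 40.8 in HF bulls and 83.3 ± 74.1 in LF bulls (SD, n = 10 each). Its log2 fold change (HF over LF) was 0.07, with a standard error of 0.37, a 95% interval of -0.68 to 0.83 and a limma adjusted p of 0.98. The mean level was lower and the mean of the log2 values slightly higher in HF bulls, and the count tests gave -0.17 to -0.22. For miR-126-5p the means were 6.89 ± 6.36 and 4.44 ± 4.22, with a log2 fold change of 0.38 and an interval of -0.72 to 1.49 (limma adjusted p = 0.96). Neither arm of the endothelial miRNA differed beyond the spread between bulls.

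miR-199a-3p had means of 121 ± 59.4 in HF and 137 ± 73.2 in LF bulls and a log2 fold change of -0.23, with an interval of -0.99 to 0.54 (limma adjusted p = 0.96). Without HF replicate 17, whose value rested on 2 reads, this log2 fold change was 0.04. For miR-199a-5p the means were 20.8 ± 21.0 and 26.0 ± 36.8, with a log2 fold change of 0.33 and an interval of -1.23 to 1.89 (limma adjusted p = 0.96), and the count tests turned it to between -0.27 and -0.33. For miR-199b the means were 5.62 ± 6.49 and 4.61 ± 6.82, with a log2 fold change of 0.34 and an interval of -1.02 to 1.70 (limma adjusted p = 0.96). miR-214 did not pass the filter. In the fit with no filter its log2 fold change was 0.02 with an interval of -0.85 to 0.89 (limma adjusted p = 0.99), at means of 0.908 ± 0.886 and 1.52 ± 2.64. Each of these intervals reached past a fold change of 1.5 in at least 1 direction, so these bulls do not settle whether differences of that size exist.

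**Figure D2:**
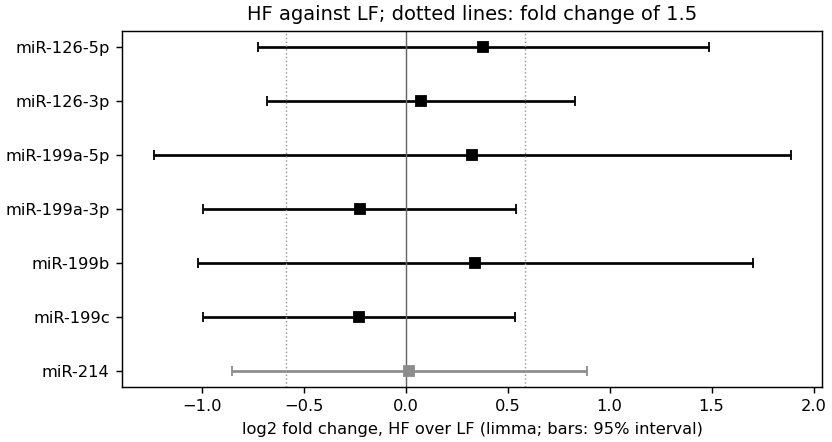
Log2 fold change (HF over LF, x axis) of each of the 7 miRNAs with its 95% interval from limma; dotted lines mark a fold change of 1.5. All 7 intervals cross 0; miR-214, in grey, comes from the fit with no filter, and miR-199c repeats miR-199a-3p.

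The share of the library taken by the 6 miRNAs together was 0.0225% ± 0.0101 in HF bulls and 0.0265% ± 0.0181 in LF bulls. The difference of -0.00397 percentage points had a two-sided permutation p of 0.57 (n = 10 each). Without LF replicate 5, the bull with the highest share, the difference was 0.000621.

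The use of the hairpin arms was read from the share of 5p reads in the reads of both arms. For miR-126 it was 143 of 1948 reads over all bulls, or 7.34% (exact binomial 95% interval, 6.22 to 8.59), with the 3p arm the major strand in every bull. The bulls ranged from 0 to 15.6% with a median of 7.69%. For miR-199a it was 564 of 3725 reads, or 15.1% (14.0 to 16.3). The 3p arm was again the major strand in every bull but HF replicate 17, where 2 reads cannot tell. miR-199a-3p here includes reads that other miR-199 genes could give.

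The arm share of miR-199a differed widely among bulls. Leaving out HF replicate 17, it ranged from 1.11 to 41.1%, and the median over all 20 bulls was 8.48%. It was above 20% in 6 bulls, 3 of each group, with LF replicate 4 at 41.1% (34.9 to 47.5), HF replicate 3 at 38.5% and HF replicate 15 at 28.1%. In LF replicate 20 it was 1.14% (0.14 to 4.04) and in LF replicate 18 it was 1.11%. The intervals of these high bulls and those of LF replicates 18 and 20 did not overlap, so counting error alone does not span this range. HF replicate 17, with 0 of 2 reads, gave no usable share.

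**Figure D3:**
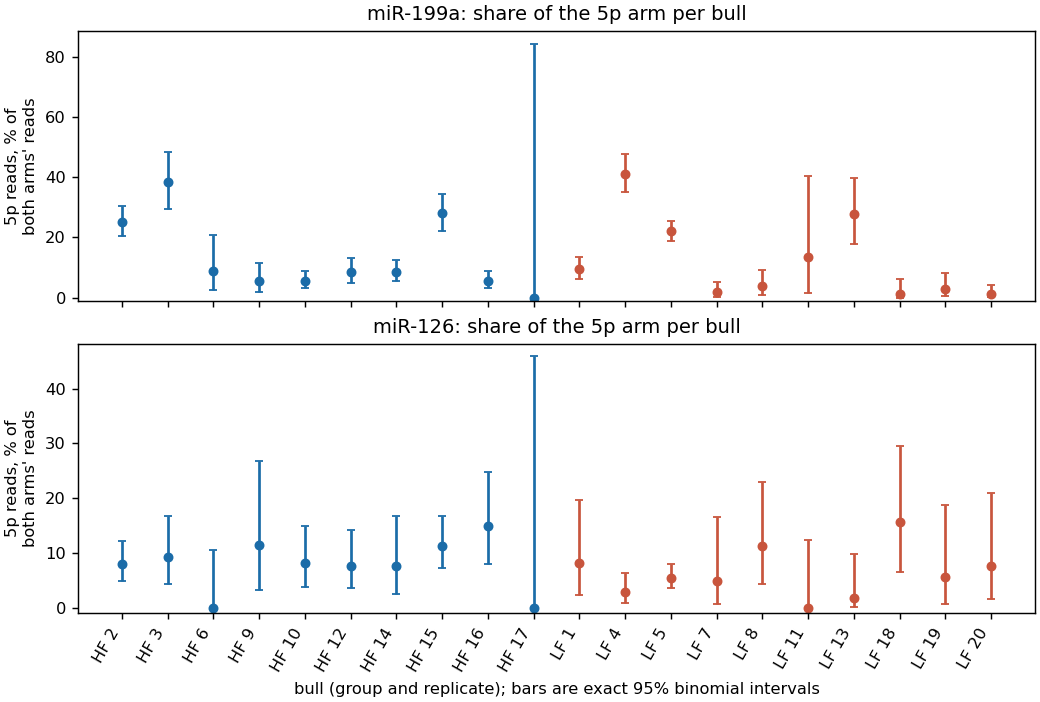
Share of 5p reads among the reads of both arms (y axis, %) of miR-199a (upper panel) and miR-126 (lower panel) in each bull (x axis), with exact 95% binomial intervals. miR-199a runs from near 0 to 41.1%, and miR-126 stays at or below 15.6%.

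Neither arm ratio differed between HF and LF bulls beyond the spread between bulls. The log2 ratio of 5p to 3p had a mean of -3.60 in HF bulls, with a range of -5.81 to -2.35, and of -3.91 in LF bulls, with a range of -6.45 to -2.31, for miR-126, a difference of 0.31 with a standard error of 0.54 (two-sided permutation p = 0.58, adjusted 0.84, n = 10 each). For miR-199a it was -2.96 ± 1.29 and -3.51 ± 1.90, a difference of 0.55 with a standard error of 0.73 (permutation p = 0.45, adjusted 0.84). Its lowest HF value, -4.28, was that of HF replicate 17, with 0 of 2 reads. For miR-126 the lowest values were those of HF replicate 17 (-5.81) and LF replicate 11 (-6.45). There 0 of 6 and 0 of 28 reads were of the 5p arm, so these values rest on the pseudocount. In libraries of at least 500000 reads the miR-199a difference was 1.09 (permutation p = 0.18, adjusted 0.62) and that of miR-126 was 0.08 (permutation p = 0.85). With no pseudocount they were 0.91 (permutation p = 0.29) and 0.74 (permutation p = 0.071, adjusted 0.42). Values were taken as log2(normalized count + 1), and p-values were adjusted over 7 ratios.

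The ratios between members gave no difference beyond that spread either. The log2 ratio of miR-199a-3p to miR-214 differed by -0.24 (HF minus LF, permutation p = 0.59) and that of miR-199a-5p to miR-214 by 0.31 (permutation p = 0.60), with 11 libraries at 0 for miR-214. miR-199b to miR-199a-5p differed by 0.01 (permutation p = 0.97) and miR-126-3p to miR-199a-3p by 0.30 (permutation p = 0.57). The remaining ratio, of miR-199c to miR-199a-3p, was 0 in all but 1 bull.

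Across the 20 bulls, several of these miRNAs rose and fell together. Relations were computed on log2(normalized count + 1) with two-sided permutation tests, 7 set with the design and 9 more chosen after the values were seen. miR-199a-5p went with miR-199b (Pearson r = 0.84, adjusted permutation p = 3.5e-05; Spearman rho = 0.82, adjusted permutation p = 0.000175), with r = 0.80 in HF bulls and 0.88 in LF bulls. Without the 2 bulls farthest from the median of miR-199a-5p it was 0.81. miR-199a-5p also went with miR-214 (r = 0.77, adjusted permutation p = 0.000163; rho = 0.74, adjusted permutation p = 0.00077), at 0.73 without the 2 farthest bulls. The r was 0.65 in HF and 0.84 in LF bulls. Levels of miR-214 rest on few reads.

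Both arms of miR-199a were less closely tied. Their r was 0.51 (adjusted permutation p = 0.033) and their rho 0.44 (permutation p = 0.053, adjusted 0.074). Without HF replicate 17 and LF replicate 4, the bulls farthest from the median of miR-199a-5p, r fell to 0.31 (permutation p = 0.20), so the relation rests on those bulls. miR-199a-3p and miR-214 gave r = 0.46 (adjusted permutation p = 0.055) and rho = 0.42 (adjusted 0.074). The arms of miR-126 gave r = 0.42 (adjusted permutation p = 0.073) and rho = 0.45 (adjusted 0.074), and r was 0.57 without HF replicate 17 and LF replicate 11, which have few reads. miR-126-3p and miR-199a-3p, the most abundant member of each family, gave r = 0.15 (adjusted permutation p = 0.54) and rho = 0.04 (adjusted 0.87). miR-199a-3p and miR-199c gave r = 1.00, as the counting described above makes them do.

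Of the 9 relations chosen after the values were seen, miR-126-3p with miR-199a-5p had r = 0.79 (permutation p adjusted over the 9, 0.000225) and rho = 0.74 (adjusted 0.00207). It was 0.67 in HF bulls, 0.86 in LF bulls and 0.70 without LF replicates 4 and 5. miR-199b with miR-214 had r = 0.83 and rho = 0.81, and miR-126-3p with miR-199b had r = 0.68 and rho = 0.57. miR-126-3p with miR-214 had r = 0.69, which was 0.40 without LF replicates 4 and 5 (permutation p = 0.10). miR-126-5p with miR-199a-3p had r = 0.68, and 0.43 without HF replicate 17 and LF replicate 11 (permutation p = 0.073). miR-126-5p had r = 0.57 with miR-199a-5p, 0.61 with miR-199b and 0.53 with miR-214, and miR-199a-3p had r = 0.43 with miR-199b (adjusted permutation p = 0.056). miR-199a-3p with miR-199b was the only one of the 9 whose r did not pass 0.05 after adjustment.

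The same bulls recurred at the top. LF replicate 5 was among the 5 highest bulls for all 6 separately counted members and HF replicate 15 for 5 of them. LF replicate 4 and HF replicate 3 were among the 5 highest for 4 members each. HF replicates 6, 12 and 17 and LF replicates 7, 8, 11, 19 and 20 were in the 5 highest for 0 of them. The levels' rho with library reads was -0.20 for miR-126-3p and 0.17 for miR-199a-5p, and it was 0.34 for miR-126-5p, 0.37 for miR-199a-3p, 0.40 for miR-199b and 0.48 for miR-214. The part of depth in the relations among the low miRNAs was not tested beyond leaving out the shallow libraries. In the 17 libraries with at least 500000 reads, r was 0.85 for miR-199a-5p with miR-199b, 0.85 for miR-199a-5p with miR-214 and 0.35 for both arms of miR-199a.

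The miRNAs whose pattern over the 20 bulls was most like that of a member were sought among 302 others with a median of at least 10 reads, by Spearman's rho on the normalized counts. These are descriptions, with no test, and the values share library and depth. For miR-126-3p the nearest was miR-143, a smooth muscle miRNA (rho = 0.71), followed by miR-2419-5p (0.50) and miR-11972 (0.37). For miR-214 they were miR-143 (0.77), miR-95 (0.59) and miR-382 (0.55). For miR-199a-3p they were miR-27a-3p (0.52), miR-2285x (0.50) and miR-196a (0.47), and miR-143 came 37th with rho = 0.30. miR-199a-5p and miR-199b were looked up after their values were seen, and miR-143 was nearest to both, with rho = 0.92 and 0.83. Next came miR-29c (0.48) and miR-26b (0.46) for miR-199a-5p. For miR-199b they were miR-29a (0.56) and miR-449a (0.55), the latter an entry of the germ line list. For miR-126-5p, also looked up then, the nearest were miR-103 (0.61), miR-95 (0.59) and miR-1271 (0.58), and miR-143 came 10th with rho = 0.51.

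The level of miR-143 followed that of miR-199a-5p in each group, with rho = 0.88 in HF and 0.98 in LF bulls. It ranged from 71.6 in LF replicate 18 to 1872 in LF replicate 4, with 1516 in HF replicate 15 and 1490 in LF replicate 5. Those 3 bulls were also the highest for miR-199a-5p and miR-126-3p. miR-143 gave no call between the groups, at 420 ± 438 in HF and 459 ± 656 in LF bulls (log2 fold change 0.36, standard error 0.60, limma adjusted p = 0.96). miR-145, made from the same transcript as miR-143, had a mean of 3.59 ± 6.00 (SD, n = 20) and was detected in 12 libraries.

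**Figure D4:**
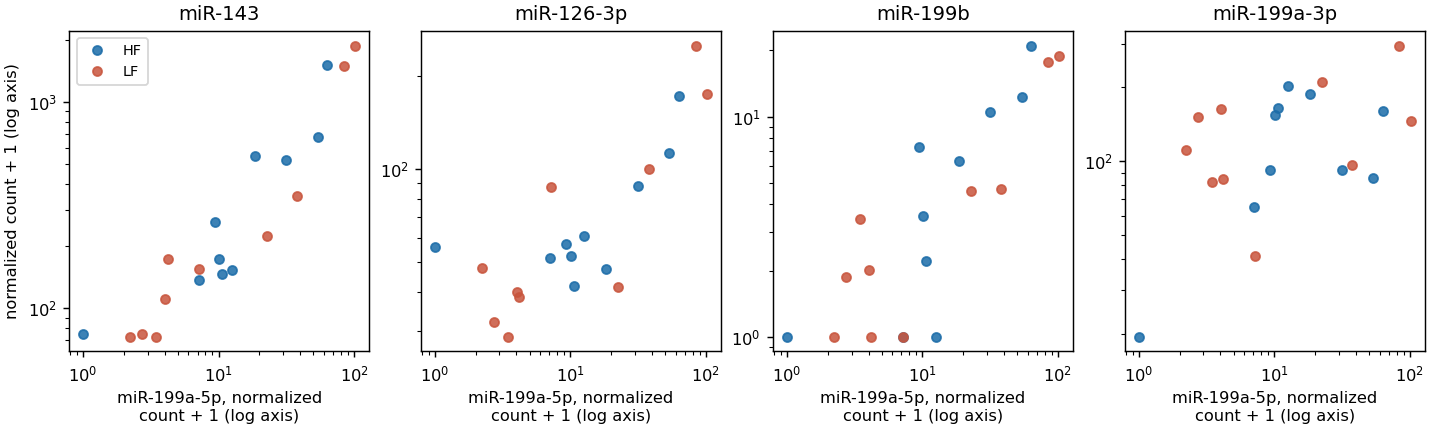
Normalized count plus 1 (log axes) of miR-143, miR-126-3p, miR-199b and miR-199a-3p (y axes) against that of miR-199a-5p (x axis). Points are the 20 bulls (HF blue, LF red); the first 3 rise with miR-199a-5p (r = 0.79 for miR-126-3p, r = 0.84 for miR-199b), and miR-199a-3p does so less closely (r = 0.51).

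Other miRNAs of blood vessels and stroma were read from a list of 12 entries that holds no member. The list summed to a mean normalized count of 8259, or 0.837% of a library, led by miR-10b at 4484 ± 1847 (SD, n = 20). Of its entries 9 could be tested and 0 passed both thresholds between HF and LF bulls, although miR-10b was called lower in HF bulls with library totals and when HF replicate 6, HF replicate 14 or LF replicate 18 was left out. The median log2 fold change was 0.05, against 0.01 over all 435 miRNAs. The summed level ran from 3732 to 12673 in HF bulls and from 6126 to 11756 in LF bulls. Its rho with miR-199a-5p was 0.50 and with miR-126-3p 0.31. The list includes miR-143, whose own rho with them was 0.92 and 0.71, so the sum is not separate from miR-143. The rho with miR-199a-5p was 0.19 for miR-10b, 0.33 for miR-139, 0.34 for miR-222 and 0.14 for miR-152. For miR-218, miR-195, miR-497 and miR-221 it was 0.26, 0.23, 0.23 and 0.05. For miR-145, which had few reads, it was 0.64. miR-145 also had a rho of 0.71 with miR-199b, 0.65 with miR-214, 0.58 with miR-126-3p, 0.35 with miR-126-5p and 0.07 with miR-199a-3p. miR-152 had a rho of 0.51 with miR-214, 0.49 with miR-199b and 0.40 with miR-126-5p, and miR-218 had 0.45 with miR-126-5p. These were among the higher values of the list, and other entries went the other way. With miR-126-5p, miR-10b had a rho of -0.28 and miR-497 of -0.27. With miR-214, miR-10b and miR-221 each had -0.10, and with miR-199b, miR-221 had -0.08. miR-152 had -0.10 with miR-126-3p.

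Marker miRNAs of other cell types were read beside these. The blood and immune list of 9 summed to 3763, from 1674 to 6427 in HF bulls and from 2175 to 7695 in LF bulls, of which miR-146a made up 3594. The blood cell miRNAs miR-451, miR-223 and miR-144 had means of 17.5, 2.02 and 0.196, and miR-142-3p ran from 0 to 14.7. Higher entries were miR-142-5p at 92.6 ± 59.0, with a rho of 0.55 with miR-126-5p, miR-486 at 22.9 ± 10.3 and miR-150 at 21.1 ± 15.5 (SD, n = 20). The list sum, mostly miR-146a, had a rho of 0.08 with miR-126-3p and -0.02 with miR-199a-5p. With miR-126-3p, miR-486, miR-144, miR-223, miR-451 and miR-142-3p had a rho of 0.34, 0.34, 0.30, 0.26 and 0.25. There miR-142-5p and miR-146a each had 0.07, miR-150 -0.05 and miR-155 -0.08. miR-142-3p had 0.41 with miR-199a-5p, where miR-155 had -0.30. Of the list's 8 tested entries miR-155 was lower in HF bulls by both thresholds, at 7.14 ± 4.99 against 13.9 ± 4.62 (limma adjusted p = 0.92), and the list median was -0.04. The edgeR and DESeq2 tests and a pseudocount of 0.5 also called miR-486 higher in HF bulls, library totals also called miR-146a lower, and the libraries of at least 500000 reads gave both calls. None of the 9 entries had a member's pattern as closely as miR-143 had that of miR-199a-5p.

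The epithelial list of 7 summed to 21956, from 17050 to 24349 in HF bulls and from 17693 to 27773 in LF bulls, led by miR-375. Its rho was -0.50 with miR-126-3p and -0.15 with miR-199a-5p, 0 of 7 passed both thresholds and the median log2 fold change was -0.39. The striated muscle list of 7 summed to 599, from 441 to 685 in HF bulls and from 386 to 861 in LF bulls, led by miR-499. Its rho was -0.24 with miR-126-3p and 0.42 with miR-199a-3p, and 0 of 4 tested entries passed, with a median of 0.30. The sum was mostly miR-499, at a mean of 527, whose rho with miR-126-3p was -0.35. With miR-126-3p, miR-133a, miR-133b, miR-206 and miR-1 had a rho of 0.45, 0.35, 0.33 and 0.21. There miR-208a and miR-208b had -0.17 and -0.19. miR-133b, miR-208a and miR-208b were detected in 6, 3 and 7 libraries. The germ line list had a rho of 0.05 with miR-126-3p, 0.06 with miR-199a-5p, 0.32 with miR-199b and 0.45 with miR-126-5p, and 0 of 5 passed, with a median of 0.20. Its sum ran from 32093 to 77203 in HF bulls and from 25829 to 54584 in LF bulls. With miR-199b, miR-449a, miR-449b, miR-449c, miR-34c and miR-34b had a rho of 0.55, 0.53, 0.27, 0.20 and 0.19. The part of any cell type in the levels of the members was not tested, and fewer cells of a type and less RNA per cell cannot be told apart in these libraries.

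bta-miR-3120 and bta-miR-3604, encoded at the miR-214 and miR-199 genes, were nearly absent. bta-miR-3120, whose gene lies at MIR214 and near MIR199A-1, had 1 read in 1 library. bta-miR-3604, whose genes lie by MIR199A-2 and MIR199B, had 0 reads.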

How the data were processed

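Small RNA libraries of sperm from 10 HF and 10 LF bulls were sequenced. Per the study's methods, the authors trimmed adapters, removed other short RNAs, aligned reads to ARS-UCD1.2 with a Y chromosome and counted miRBase miRNAs with miRDeep2. The submitters' processing notes name cutadapt 2.6, FastQC 0.11.8, edgeR 3.5 and R 3.4. The deposited table holds normalized counts, a signal per miRNA made by the authors from counts, library totals and TMM factors. The value of 1 read was found in each library, and 95.0% of the values above 0 were then whole within 0.02 reads; all member values were whole. The members and lists were chosen with earlier results of these data known.

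The test was limma 3.58.1 on log2(normalized count + 1), after removing miRNAs below 1 in 10 or more bulls, which left 435. This replaces the study's edgeR test, since the values are normalized. edgeR 4.0.16 and DESeq2 1.42.0 on recovered reads, other pseudocounts and filters, library totals and leaving out bulls were alternatives. Ratios, shares, orders and correlations were tested by permutation (100000 resamples) with numpy 2.4.6, scipy 1.17.1 and pandas 2.3.3. The named miRNAs are all members, the 3 nearest in pattern to miR-126-3p, miR-199a-3p and miR-214, and the entries of the lists that lead them or pass the test; others were chosen after their values were seen. The scripts were tested on simulated data.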

Additional observations from a re-analysis of the deposited data

Results flagged for a closer look

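Over 29 groups of 10 bulls examined, 2 held a bull whose gap to its nearest neighbour was wide for the range of its group. The nominal rate of the limit gives about 1.45 for independent groups. These groups share miRNAs and bulls, and some hold values at 0, so 1.45 cannot be used to judge the 2. miR-126-5p in HF replicate 15 was 22.0, with the next HF bull at 11.3, a gap of 0.484 of the range. The log2 ratio of miR-199c to miR-199a-3p in HF replicate 10 was -0.014 with all other HF bulls at 0, a gap of 1 of the range, and it stands for 301 against 304 reads.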

How the results depend on the processing

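The count of members past both thresholds was 0 under every alternative run, and the 9 calls over all miRNAs became 4 with a pseudocount of 5, 15 with no filter, 0 of 222 with a value of at least 10 in every bull (5 at an unadjusted limma p under 0.05), and 7 to 15 when leaving out single bulls (15 without HF replicate 6, and 14 without LF replicate 1, 11 or 13). With the edgeR quasi-likelihood, edgeR likelihood ratio and DESeq2 tests, in this order, the log2 fold change turned to -0.17, -0.17 and -0.22 for miR-126-3p, -0.27, -0.28 and -0.33 for miR-199a-5p, and -0.62, -0.61 and -0.60 for miR-214. miR-214 was -0.0033 with library totals, -0.070 with a pseudocount of 5 and -0.086 in libraries of at least 500000 reads. In those libraries the ratio of miR-199b to miR-199a-5p turned to -0.47 and the epithelial median moved to -0.18. There the ratio of miR-199a-5p to miR-214 differed by 0.99 (permutation p = 0.050, adjusted 0.35). The ratio of miR-199a-3p to miR-214 was 0.97 (permutation p = 0.12) with no pseudocount, where libraries at 0 drop out. Without the 2 farthest bulls, r was 0.57 for the arms of miR-126, 0.31 for those of miR-199a, 0.44 for miR-199a-3p with miR-214 and -0.14 for miR-126-3p with miR-199a-3p. In the deeper libraries r was 0.64 for the arms of miR-126 and 0.35 for those of miR-199a. The cause of these changes was not tested.

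Leaving out single bulls moved the log2 fold change between -0.078 and 0.29 for miR-126-3p, -0.40 and 0.042 for miR-199a-3p, -0.40 and 0.041 for miR-199c, and -0.073 and 0.26 for miR-214, the ratio of miR-199b to miR-199a-5p between -0.18 and 0.22, the share of the library between -0.00618 and 0.000621, and the epithelial median between -0.46 and -0.19 (without HF replicate 17). No member passed the thresholds in any of these fits. The other results of the members kept their direction and side of the threshold, but some uncalled values moved by more than 1.5 times. The log2 fold change of miR-199a-5p was 0.077 without LF replicate 18, 0.74 without HF replicate 17 and 0.90 in libraries of at least 500000 reads. That of miR-199b was 0.074 without HF replicate 15 and 0.63 without LF replicate 4, that of miR-126-5p was 0.15 without LF replicate 11 and 0.66 without HF replicate 6, and the arm ratio of miR-126 was 0.025 without LF replicate 11 and 0.55 without HF replicate 17. The arm ratio of miR-199a was 0.30 without HF replicate 3 and 0.89 without LF replicate 4. Among the marker miRNAs, leaving out single bulls also made calls of miR-10b, miR-146a and miR-486. The filter of 10 in every bull left only miR-126-3p, miR-199a-3p and miR-199c among the members. No paired analysis of HF with LF was possible because the groups hold different bulls. The depth limits miR-214, miR-199b and miR-126-5p most, since 3 reads stand for 27.6 in HF replicate 17 and 9.27 in LF replicate 11.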
